A study of Mus musculus with 4 samples.

Results

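The genes described here encode the TGF-beta ligands (Tgfb1, Tgfb2 and Tgfb3), their receptors (Tgfbr1, Tgfbr2 and Tgfbr3) and the latent TGF-beta binding proteins (Ltbp1, Ltbp2, Ltbp3 and Ltbp4). They were taken by symbol as 10 of the 25793 genes listed in each count table. All 10 had enough reads in the tumours, in normal liver or in both to be tested. RNA sequencing covered 4 mouse liver libraries. Of these, 2 were labelled liver tumours of β2SP+/-; SMAD3+/- mice, which carry 1 intact copy each of the genes for beta-2 spectrin and SMAD3 (tumours 1 and 2). A further 1 was labelled as normal liver from that same genotype, and 1 came from the normal liver of a mouse labelled wild type. Beta-2 spectrin (gene Spnb2, now Sptbn1) is an adaptor that brings SMAD3 to the activated TGF-beta receptor. By these labels the tumours and 1 of the normal livers carry the double heterozygous genotype, and the livers are named here by label alone; the sources used here give no ages or sexes, and do not say whether tumours 1 and 2 grew in different animals.

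TGF-beta is secreted as a latent complex. Each ligand precursor is cut into a mature growth factor and a propeptide that stays wrapped around it, and a latent binding protein ties this complex to the extracellular matrix until integrins, proteases or thrombospondin release the ligand. The released ligand binds TGFBR2, which recruits and phosphorylates TGFBR1, and TGFBR1 phosphorylates SMAD2 and SMAD3; TGFBR3, also called betaglycan, is a co-receptor with no kinase. In liver the pathway is known for restraining hepatocyte division and for driving fibrosis.

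Reads assigned to genes numbered from 11049931 (tumour 1) to 18448621 (normal table labelled wild type). After scaling, the genes of the heterozygous alleles were not lower in the normal table labelled double heterozygous. Their raw counts were lower there, at 426 for Smad3 and 3364 for Spnb2, against 460 and 3549 in the table labelled wild type. Smad3 had 305 and 117 CPM (read counts per 1000000 counts of the library) in tumours 1 and 2, against 50.3 and 47.0 CPM in the tables labelled double heterozygous and wild type. Spnb2 had 1119 and 1028 CPM in the tumours, against 398 and 363 CPM in those normal tables. The sources used here do not say how the alleles were made. The normal tables shared counts beyond sampling: where a gene averaged 1 to 5 counts over a pair of tables, its counts were identical in 56.8% of cases for the normal pair, where sampling from separate libraries of these depths gives 29.3%, and in 13.1% for the tumours, and the table labelled wild type was the lower of the normal pair in 3.53%. Low counts therefore differed by less than sampling noise, and the normal tables were counted as 1 sample by taking their rounded mean. For the same reason the levels of Smad3 and Spnb2 in the normal tables cannot show what the genotype does. The submitters' short descriptions read differently from the other labels and name T cells for the tumours and hepatocytes for the normal livers. Of 10 T cell markers, 8 and 6 were at 0 counts in tumours 1 and 2, and their summed level was 2.96 and 1.23 CPM, against 17.1 and 18.7 CPM in the same normal tables. The hepatocyte markers that define the labelled tissue summed to 169 and 156 CPM in tumours 1 and 2, against 207000 and 197000 CPM in the same normal tables. Most of what the tumours held of them was the transcription factor gene Hnf4a, chosen after its values were seen, with 2323 and 1991 counts in tumours 1 and 2, against 11330 and 12038 in the tables labelled double heterozygous and wild type; albumin (Alb) had 123 and 807 counts in the tumours, against 1083426 and 1194814 in those tables. CPM values are scaled by TMM, and in bulk tissue fewer cells of a type and less RNA per cell cannot be told apart.

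The start-site windows of Tgfb1, Tgfb2 and Ltbp3 are printed because Tgfb2 and Ltbp3 carried the largest rises among these genes and Tgfb1 is the ligand that led in normal liver. RefSeq windows (GRCm38.p6, 250 bases before to 50 after the annotated start, 5′ to 3′ on the gene's own strand) were matched by symbol for 8 of the 10 genes, all but Tgfb3 and Tgfbr3. Capitals mark the GC box GGGCGG in Tgfb1, the TATA box TATAAA and the CAGA box CAGACA in Tgfb2, and the AP-1 site TGACTCA and the CAGA box in Ltbp3, each on either strand. 
Tgfb1, chr7:25686752-25687051, plus strand: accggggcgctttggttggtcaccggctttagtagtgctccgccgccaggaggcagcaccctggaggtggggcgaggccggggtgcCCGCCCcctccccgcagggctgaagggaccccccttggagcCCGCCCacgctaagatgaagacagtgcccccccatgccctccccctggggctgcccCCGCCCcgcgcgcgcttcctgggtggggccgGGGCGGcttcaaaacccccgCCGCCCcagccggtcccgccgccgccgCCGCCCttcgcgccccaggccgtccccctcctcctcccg
Tgfb2, chr1:186705940-186706239, minus strand: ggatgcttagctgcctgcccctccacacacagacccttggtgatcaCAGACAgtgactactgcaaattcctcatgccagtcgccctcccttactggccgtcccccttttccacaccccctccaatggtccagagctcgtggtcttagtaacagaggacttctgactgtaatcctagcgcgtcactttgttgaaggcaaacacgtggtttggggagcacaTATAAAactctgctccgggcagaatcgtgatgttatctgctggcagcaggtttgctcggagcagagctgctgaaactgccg
Ltbp3, chr19:5740650-5740949, plus strand: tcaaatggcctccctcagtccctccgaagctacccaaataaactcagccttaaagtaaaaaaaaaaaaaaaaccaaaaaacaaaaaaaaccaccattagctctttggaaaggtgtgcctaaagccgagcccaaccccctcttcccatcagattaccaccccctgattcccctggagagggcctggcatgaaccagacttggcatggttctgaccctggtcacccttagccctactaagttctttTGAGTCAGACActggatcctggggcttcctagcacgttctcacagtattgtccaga

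The windows differed in their letters. That of Tgfb1 was 77.0% G or C and held 6 GC boxes and no TATA box. That of Tgfb2 was 54.3% G or C, held no GC box, and had its TATA box at position -31, counted back from the start, and a CAGA box, a short sequence that SMAD3 and SMAD4 can bind, at position -204. In Ltbp3 (48.0% G or C) the AP-1 site began at position -6 and its last letters overlapped a CAGA box. Of all 32851 RefSeq windows of this length, 35.7% held the GC box, 13.6% the TATA box, 5.20% the AP-1 site and 21.0% the CAGA box. The core of the cyclic AMP response element, TGACGT, was also searched on both strands; it was in none of these 3 windows and in 7.51% of all. These matches describe letters only and were not measured as bound sites.

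The first comparison set the ligand genes of the tumours against those of normal liver. Tgfb2 and Tgfb3 rose, and Tgfb1 did not pass the test. Tgfb2, the isoform whose propeptide lacks the integrin-binding RGD sequence, had 2766 and 1385 counts in tumours 1 and 2, against 4 in each normal table (exact 95% Poisson interval 1.09 to 10.2). On the CPM scale tumours 1 and 2 had 186 and 74.3, against 0.473 and 0.409 in the tables labelled double heterozygous and wild type. Both tumours stood above both normal tables, with no overlap and with the normal values just above the floor of 3 counts. The fold change was 291 (log2 8.19, SE 1.22, edgeR adjusted p = 0.0384), and the log2 difference was 8.73 in tumour 1 alone and 7.41 in tumour 2 alone.

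Tgfb3, whose propeptide does carry the RGD sequence, had 513 and 1556 counts in tumours 1 and 2, against 4 and 6 in the tables labelled double heterozygous and wild type. Its tumour level was 59.0 ± 34.6 CPM (SD, n = 2), against 0.548 CPM for mean normal liver, a 106-fold rise (log2 6.73, SE 1.14, edgeR adjusted p = 0.0475). The log2 difference was 5.98 in tumour 1 alone and 7.25 in tumour 2 alone. Of the 31-base stretches of Tgfb3, 9.96% occur in another gene, and predicted genes that the tables do not list lie opposite exons of Tgfb2 and Tgfb3. Tumour 2 was the higher here, whereas for Tgfb2 it was tumour 1. Tgfb1, the isoform best known from platelets, immune cells and liver fibrosis, had 128 and 294 counts in the tumours, against 24 and 27 in the tables labelled double heterozygous and wild type. Its groups did not overlap either, at 8.62 and 15.8 CPM in the tumours, against 2.84 and 2.76 CPM for the same normal tables, but the log2 fold change of 2.10 (SE 0.98) did not pass (edgeR adjusted p = 0.246). With both normal tables entered as separate libraries it passed in edgeR (adjusted p = 0.0301, the lowest of its alternatives, which reached 0.266).

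**Figure D1:**
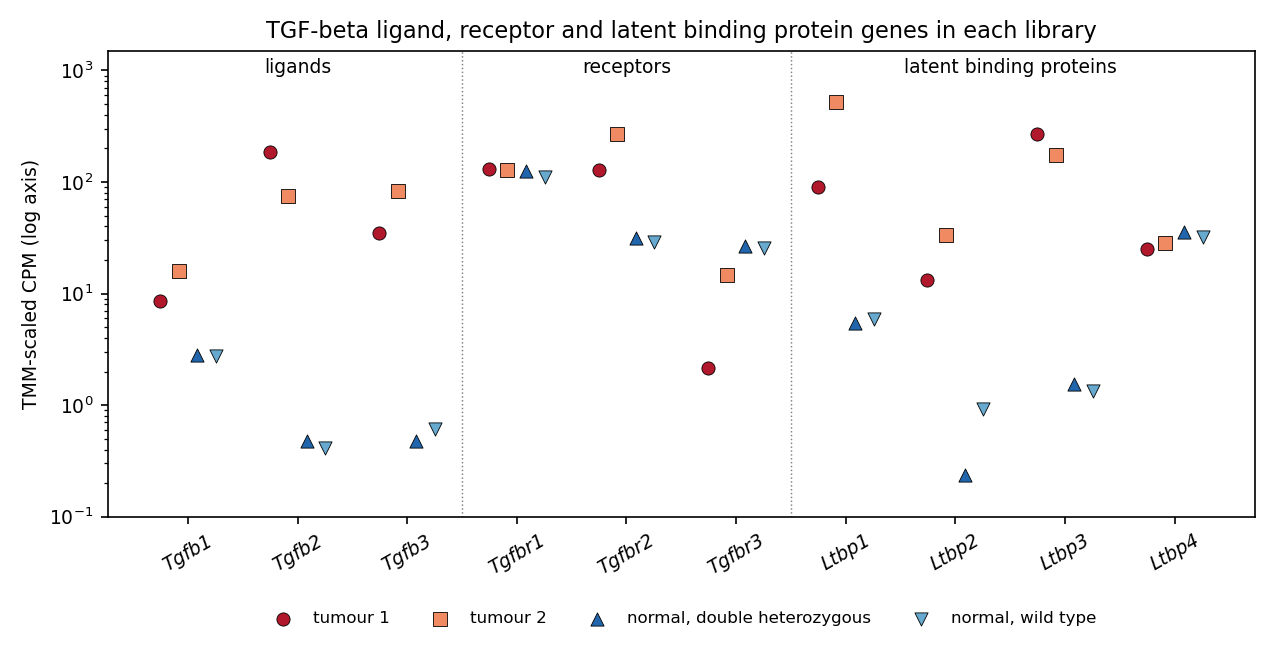
TMM-scaled CPM on a log axis for each of the 10 genes in tumours 1 and 2 and in the normal tables labelled double heterozygous and wild type, 1 point per library. Tgfb2, Tgfb3, Ltbp1, Ltbp2 and Ltbp3 stand at 0.236 to 5.93 CPM in the normal tables and at 13.1 CPM or more in the tumours, while Tgfbr1 lies between 112 and 131 CPM in every library.

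The make-up of the ligand family differed as well. Shares of counts within 1 library do not depend on scaling between libraries. Tgfb1 made up 3.76% and 9.09% of the ligand counts in tumours 1 and 2 (exact 95% intervals 3.14 to 4.45 and 8.12 to 10.1), against 75.0% of 32 counts in the table labelled double heterozygous (56.6 to 88.5) and 73.0% of 37 in the table labelled wild type (55.9 to 86.2). Tgfb2 led in tumour 1 with 81.2% of 3407 ligand counts, and Tgfb3 in tumour 2 with 48.1% of 3235, ahead of Tgfb2 at 42.8%. Divided by transcript length, Tgfb1 was 7.93% and 15.7% of the ligand level in the tumours, against 85.0% and 83.0% in the normal tables. Normal liver thus held mainly Tgfb1 among the ligands and the tumours mainly the other isoforms, and the intervals of tumours and normal tables did not overlap for Tgfb1. These shares were not tested, with the normal tables counted as 1 sample.

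**Figure D2:**
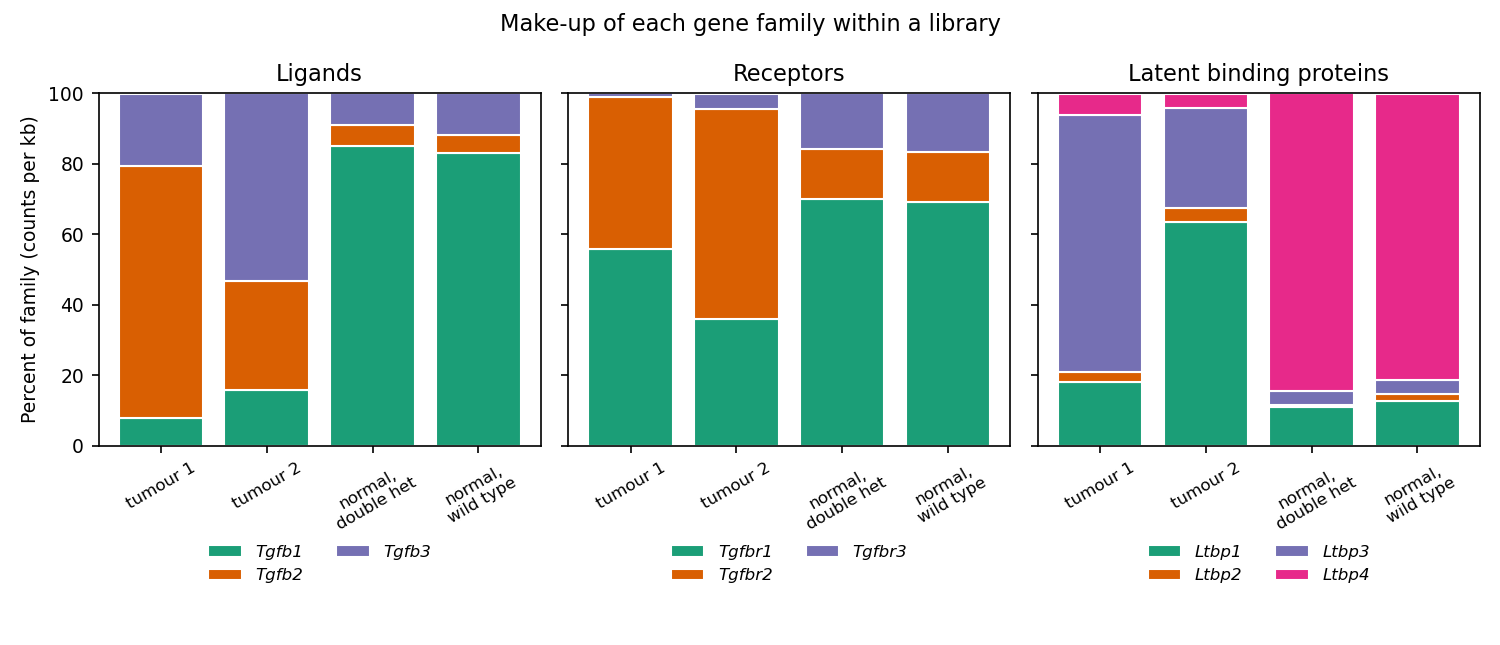
Percent of each family's counts per kb of transcript that each gene supplied, in tumours 1 and 2 and in the normal tables labelled double heterozygous and wild type; each bar is 1 library and adds to the whole family. Tgfb1 is at 7.93% and 15.7% in the tumours, against 85.0% and 83.0% in the normal tables, and Ltbp4 at 5.98% and 4.10% in the tumours, against 84.4% and 81.4% in the normal tables.

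No receptor gene passed the test in edgeR with the normal tables as 1 library, where Tgfbr2 had an unadjusted p of 0.0242. Tgfbr1, the type I receptor kinase, had 131 and 128 CPM in tumours 1 and 2, against 124 and 112 CPM in the tables labelled double heterozygous and wild type. The 4 libraries lay close together, and the log2 fold change was 0.14 (SE 0.53, edgeR adjusted p = 0.885), with the opposite sign at -0.0061 against the table labelled double heterozygous alone. Tgfbr2, the type II kinase that binds the ligand, had 1919 and 5057 counts in the tumours, against 268 and 286 in the tables labelled double heterozygous and wild type. It stood at 129 and 271 CPM in the tumours, against 31.7 and 29.2 CPM in those tables, higher in both tumours without overlap (log2 fold change 2.72, SE 0.80, edgeR adjusted p = 0.124). It passed in DESeq2 (adjusted p = 0.0115) and in edgeR with both normal tables as separate libraries (adjusted p = 0.0175), and its other alternatives reached 0.137. The log2 difference was 2.09 in tumour 1 alone and 3.16 in tumour 2 alone.

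Tgfbr3, the co-receptor that presents TGF-beta 2 to the signalling receptors, had 32 and 276 counts in tumours 1 and 2, against 227 and 248 in the tables labelled double heterozygous and wild type. After scaling it was lower in both tumours, at 2.16 and 14.8 CPM, against 26.8 and 25.3 CPM in those normal tables, with a log2 fold change of -1.62 that did not pass (SE 1.22, edgeR adjusted p = 0.431). Tumour 1 held the lower level, and the log2 difference from normal liver was -3.60 in tumour 1 alone and -0.82 in tumour 2 alone. Within the family, Tgfbr2 supplied 49.3% and 65.5% of receptor counts in the tumours, against 17.3% and 17.6% in the normal tables. Tgfbr3 supplied 0.823% and 3.57% in the tumours, against 14.7% and 15.2% in the normal tables. The receptor genes together summed to 262 and 415 CPM in tumours 1 and 2, against 174 CPM for mean normal liver, and the ligand genes to 230 and 174 CPM in the tumours, against 3.84 CPM for mean normal liver.

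Among the latent binding proteins Ltbp3 rose, Ltbp1 and Ltbp2 were higher in both tumours without passing, and Ltbp4 stood near its normal level. Ltbp3, which like Ltbp1 encodes a protein that binds the latent complex of every TGF-beta isoform, had 4033 and 3249 counts in tumours 1 and 2, against 13 in each normal table. Its tumour level was 223 ± 68.8 CPM (SD, n = 2), against 1.42 CPM for mean normal liver, a 156-fold rise (log2 7.28, SE 0.90, edgeR adjusted p = 0.028). The sources used here do not say whether counting used strand, so reads from genes on opposite strands of 1 place cannot be told apart.

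Ltbp1, the founding member of the family, had 1325 and 9677 counts in tumours 1 and 2, against 46 and 58 in the tables labelled double heterozygous and wild type. The tumours stood at 89.3 and 519 CPM, against 5.44 and 5.93 CPM in those normal tables, so both stood over 10-fold above the normal tables while differing 5.81-fold from each other. The log2 fold change of 5.74 (SE 1.58) did not pass (edgeR adjusted p = 0.111), and the difference was 3.97 in tumour 1 alone and 6.51 in tumour 2 alone. Ltbp2, whose protein does not bind latent TGF-beta and is known as an elastic fibre component, had 195 and 629 counts in the tumours, against 2 and 9 in the tables labelled double heterozygous and wild type (log2 fold change 5.14, SE 1.18, edgeR adjusted p = 0.0809). Its normal counts lie around the floor of 3, and the log2 fold change was 6.52 without the table labelled wild type and 4.67 without the one labelled double heterozygous, and 4.32 in tumour 1 alone and 5.68 in tumour 2 alone. Of its 31-base stretches, 10.7% also occur in another gene, so its counts are uncertain. The gene D030025P21Rik, opposite its exons, had 7 and 38 counts in tumours 1 and 2, against 0 in both normal tables. DESeq2 called Ltbp1 and Ltbp2 higher (adjusted p = 1.14e-05 and 0.000317), as did edgeR with separate normal tables (adjusted p = 0.0227 and 0.0185), and their highest adjusted p under any alternative was 0.116 and 0.0857.

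Ltbp4, which binds the latent complex of TGF-beta 1 and takes part in elastic fibre assembly, had 372 and 532 counts in tumours 1 and 2, against 301 and 315 in the tables labelled double heterozygous and wild type. On the CPM scale it was 25.1 and 28.6 in tumours, against 35.6 and 32.2 in normal tables (log2 fold change -0.33, SE 0.58, edgeR adjusted p = 0.735). Without scaling beyond the total count its sign turned (1.04), but the median of all genes then stood at 1.56, above it. Within the family, Ltbp4 made up 6.28% and 3.78% of latent binding protein counts in the tumours, against 83.1% and 79.7% in the normal tables. Ltbp3 led in tumour 1 with 68.1% (22.4% Ltbp1), and Ltbp1 led in tumour 2 with 68.7% (23.1% Ltbp3). The shares of Ltbp3 and Ltbp1 in the normal tables were 3.59% and 12.7% in the one labelled double heterozygous and 3.29% and 14.7% in the one labelled wild type.

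**Figure D3:**
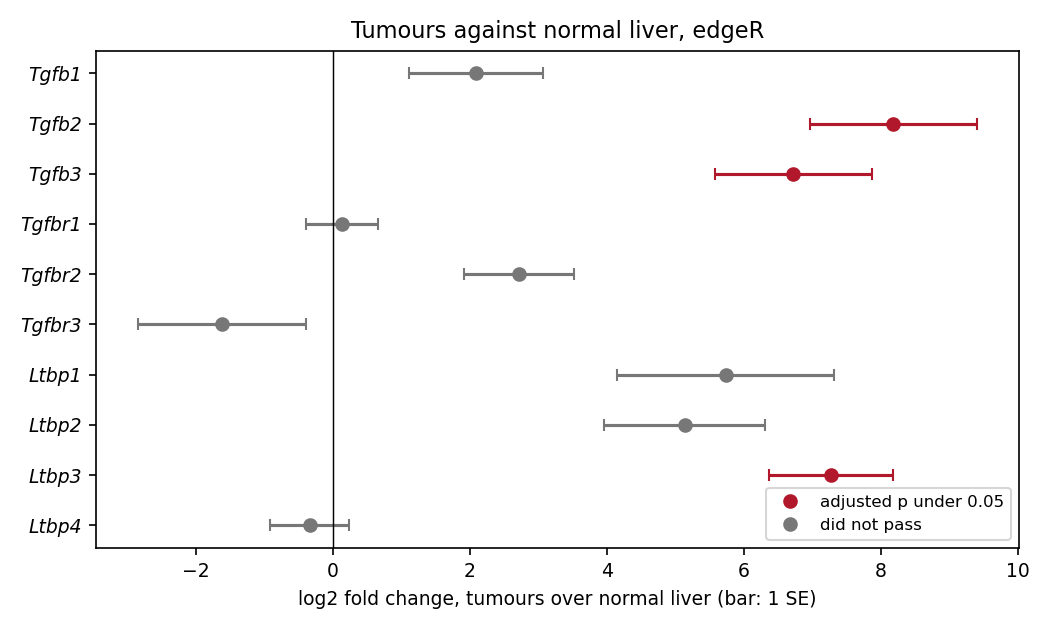
Log2 fold change of the tumours over the mean normal library for the 10 genes, with bars of 1 SE from edgeR; red points passed at adjusted p under 0.05. Tgfb2 (8.19), Ltbp3 (7.28) and Tgfb3 (6.73) passed, and Tgfbr1 (0.14) and Ltbp4 (-0.33) lie closest to 0.

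Over the whole set, 3 of 10 genes were called higher and 0 lower, against 2.23% of all 14468 genes tested called higher and 5.19% called lower. Tgfb2, Tgfb3 and Ltbp2 had mean normal counts of 4, 5 and 6, under the filter's minimum count of 10. They were thus tested only because of their tumour counts and could hardly be called lower. Ltbp3, with a mean normal count of 13, lay only just above that minimum. This tally is therefore partly set by the filter. The median log2 fold change was 3.93 over the 10 genes and 0.19 over all genes tested. Before adjustment, 6 were higher and 0 lower with p under 0.05, against 12.5% and 15.5% of all genes. Both tumours stood above both normal tables for 8 of the genes, against 41.2% of all genes, and below both for 2, against 37.5%. The 3 called genes kept their calls in all 8 alternatives with a test, with adjusted p of at most 0.0494 in edgeR. DESeq2 called 6 higher and 0 lower, where it called 12.5% of all genes higher and 12.4% lower.

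Levels of different genes were compared per kb of transcript. In the mean normal library Tgfbr1 was the highest of the 10 genes at 18.4 CPM per kb, followed by Ltbp4 at 5.76, Tgfbr3 at 4.29 and Tgfbr2 at 3.71, with Tgfb2 the lowest at 0.0843. In tumour 1 the order began with Ltbp3 at 52.4 CPM per kb, Tgfb2 at 35.8 and Tgfbr1 at 20.4, and in tumour 2 with Ltbp1 at 75.3, Ltbp3 at 33.6 and Tgfbr2 at 33.2, the last pair nearly equal. Tgfbr3 ranked last in both tumours, at 0.354 and 2.43 CPM per kb. With 1 normal library and 2 tumours, the places of neighbours in these orders are a description.

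Tumours 1 and 2 were then set against each other, without a test since each is 1 library. All 10 genes exceeded 10 CPM in at least 1 tumour, 6 differed over 2-fold, against 27.5% of the 9242 genes compared, and 2 of these over 4-fold, against 9.71%. Tgfb2 was 2.51-fold higher in tumour 1 (log2 ratio 1.33) and Ltbp3 1.56-fold higher there. Lower in tumour 1 than in tumour 2 were Tgfbr3 (log2 ratio -2.70), Ltbp1 (-2.54), Ltbp2 (-1.35), Tgfb3 (-1.27), Tgfbr2 (-1.07) and Tgfb1 (-0.86). Tgfbr1 (0.03) and Ltbp4 (-0.19) were nearly equal. The genes thus fell into those higher in tumour 1, led by Tgfb2, those higher in tumour 2, led by Tgfbr3 and Ltbp1, and those alike in both.

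**Figure D4:**
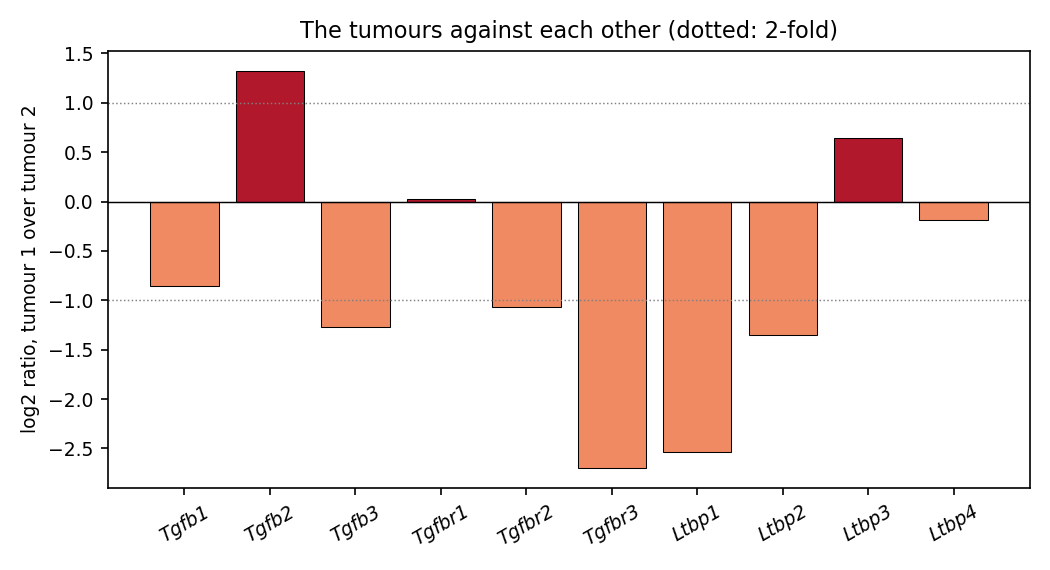
Log2 ratio of tumour 1 over tumour 2 for the 10 genes, from CPM after TMM scaling and a prior count of 2; dotted lines mark 2-fold and there is no replicate error. Tgfb2 (1.33) stands above the upper line, and 5 genes, from Tgfbr2 (-1.07) to Tgfbr3 (-2.70), lie below the lower one.

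Markers of other cells also differed between the libraries. Of 10 stellate cell and fibroblast markers, 1 was above both normal tables in both tumours (all genes: 41.2%) and 6 were below (all genes: 37.5%). They summed to 4.04 and 408 CPM in tumours 1 and 2, against 188 and 171 CPM in the tables labelled double heterozygous and wild type, with 4 and 3 of them at 0 in the tumours and none at 0 in the normal tables. Among them, and chosen after their values were seen, Col1a1 had 30 and 3757, Col3a1 14 and 2190 and Pdgfrb 2 and 1527 counts in tumours 1 and 2, while Lum, Lrat and Dpt were at 0 in both. Endothelial markers summed to 0.808 and 1.61 CPM in tumours 1 and 2, against 313 and 306 CPM in the tables labelled double heterozygous and wild type. Kupffer cell and macrophage markers summed to 62.9 and 5.80 CPM in the tumours, against 202 and 194 CPM for the normal tables, and platelet markers to 8.35 and 4.72 CPM in the tumours, against 11.8 and 13.4 CPM for the normal tables. Bile duct markers summed to 2930 and 2270 CPM in the tumours, against 56.5 and 52.6 CPM for the normal tables. Of these markers, 8 of 10 were above both normal tables in both tumours (all genes: 41.2%). Spp1, the largest of them in the tumours, held 1530 and 1580 CPM of these sums in tumours 1 and 2. The others, Epcam and Cftr, were above both normal tables in tumour 1 and below both in tumour 2. Ltbp1, Tgfb3 and Tgfbr2, chosen after their values were seen, stood at 89.3, 34.6 and 129 CPM in tumour 1 and at 519, 83.5 and 271 CPM in tumour 2. Tgfb2 and Ltbp3 went the other way, at 186 and 272 CPM in tumour 1 and 74.3 and 174 CPM in tumour 2. Tgfbr1 and Ltbp4 were nearly equal in both. The part of fibroblasts, or of any other cell type, in the levels of these genes was not tested.

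The next comparison, of the normal livers, concerned the heterozygous genotype in liver without a tumour. The 4 genes of the set with at least 10 CPM in either table, Tgfbr1, Tgfbr2, Tgfbr3 and Ltbp4, had log2 ratios of 0.23, 0.20, 0.16 and 0.23 for the table labelled double heterozygous over the one labelled wild type. These ratios used a TMM factor for each table, whereas the CPM values of the normal tables share a factor, so the ratios differ from those of the CPM values. None was over 2-fold apart, against 4.42% of 8267 genes compared. The count in the table labelled wild type was at least that in the table labelled double heterozygous for all 10 genes, and equal for 2, Tgfb2 and Ltbp3. Since the tables share counts, these ratios cannot show what the genotype does.

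Genes that keep TGF-beta latent or release it were taken next. Of 24 such genes 21 were tested: 0 were called higher and 1 lower, against 2.23% and 5.19% of all genes, and 20 did not pass. Before adjustment 4 were higher and 4 lower with p under 0.05, against 12.5% and 15.5% of all genes. DESeq2 called 4 higher and 4 lower, against 12.5% and 12.4% of all genes, shares that lie near those of the list. The median log2 fold change was 0.46, against 0.19 over all genes tested. Plg, which encodes the protease precursor plasminogen made by hepatocytes, had 6 counts in each tumour, against 60482 and 63073 in the tables labelled double heterozygous and wild type (log2 fold change -14.16, SE 1.12, edgeR adjusted p = 0.0182); 14.4% of its 31-base stretches occur in another gene. Itgb6, chosen after its values were seen, encodes the beta chain of an integrin that releases TGF-beta 1 and 3. It was tested only because of its tumour counts and could hardly be called lower. It had 268 and 1144 counts in tumours 1 and 2, against 1 in each normal table, and did not pass (edgeR adjusted p = 0.0562; 3.56e-05 to 0.0623 over its alternatives, 6 of which called it higher). Furin, named the same way, encodes the protease that cuts the ligand precursors and had 2275 and 1728 counts in the tumours, against 7867 and 8340 in the tables labelled double heterozygous and wild type (log2 fold change -2.85, SE 0.65, edgeR adjusted p = 0.0804; 0.00292 to 0.147 over its alternatives, 3 of which called it lower).

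Among 30 genes of signalling at and below the receptors, 1 was called higher and 0 lower, against 2.23% and 5.19% of all genes. The median log2 fold change of the list was 0.65, against 0.19 over all genes tested. Before adjustment 6 were higher and 1 lower with p under 0.05, against 12.5% and 15.5% of all genes. DESeq2 called 4 higher and 1 lower, against 12.5% and 12.4% of all genes. The called gene was Tgif2, a repressor of SMAD-driven transcription, with 143 and 343 counts in tumours 1 and 2, against 0 and 1 in the tables labelled double heterozygous and wild type (edgeR adjusted p = 0.0497). It was tested only because of its tumour counts and could hardly be called lower. Of its 31-base stretches 88.2% occur in another gene, and no gene of this list was called against either normal table alone. Smad3 and Spnb2, the genes of the heterozygous alleles, did not pass, with log2 fold changes of 2.12 for Smad3 (SE 0.87, edgeR adjusted p = 0.207) and 1.5 for Spnb2 (SE 0.73, edgeR adjusted p = 0.258). With both normal tables as separate libraries both passed in edgeR (adjusted p = 0.0432 and 0.0172), and the log2 difference of Smad3 was 1.26 in tumour 2 alone.

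Target genes of the pathway included several with large rises. Of 28 listed, 27 were tested, and 6 were called higher and 0 lower, against 2.23% and 5.19% of all genes. The median log2 fold change of the list was 4.09, against 0.19 over all genes tested. This list shares Smad7, Skil and Tgif1 with the signalling list, and Tgfbi, Tgm2 and Thbs1 with the latency and activation list. The shared genes are counted in each list, and none of them passed. Before adjustment 13 were higher and 0 lower with p under 0.05, against 12.5% and 15.5% of all genes, and DESeq2 called 13 higher and 0 lower, against 12.5% and 12.4%. Pmepa1 stood at the filter's minimum count of 10 in mean normal liver. Under it were Timp1, Il11, Snai1, Cdkn2b and Acta2, with mean normal counts of 0, 0, 0, 4 and 6. Genes under it were tested only because of their tumour counts and could hardly be called lower, so the tally and median of this list are partly set by the filter. Timp1, an inhibitor of matrix proteases, had 393 and 1152 counts in tumours 1 and 2 and 0 in both normal tables, at least 134-fold higher against a floor of 3 counts in the mean normal library (at least 80.5-fold in tumour 1 alone and 188-fold in tumour 2 alone; edgeR adjusted p = 0.0357). Also called were Ctgf, Pmepa1, Cyr61 and Id1, with log2 fold changes of 6.72, 6.47, 5.55 and 5.42 and edgeR adjusted p of 0.0263, 0.0308, 0.0489 and 0.0344. Without the table labelled wild type Cyr61 no longer passed (edgeR adjusted p = 0.0521). Of the 31-base stretches of Ctgf, 19.7% occur in another gene. Collagen targets differed between the tumours, with Col1a2, chosen after its values were seen, at 1 and 5230 counts in tumours 1 and 2, against 75 and 78 in the tables labelled double heterozygous and wild type.

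**Figure D5:**
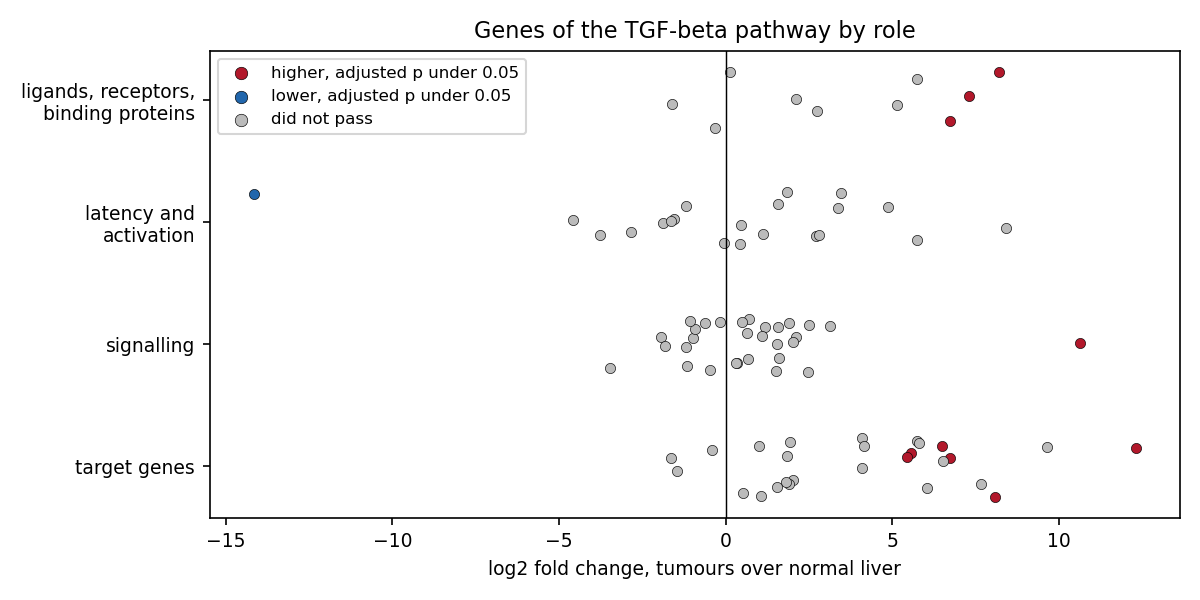
Log2 fold change of the tumours over the mean normal library for tested genes of the 10-gene set and of the lists for latency and activation, signalling and target genes. Each point is 1 gene, red called higher and blue called lower at edgeR adjusted p under 0.05, and a gene shared by lists has a point in each. The called genes are 3, 0, 1 and 6 higher in these lists, with Plg the 1 lower; values of genes at 0 in normal liver depend on the fit's prior count.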

How the data were processed

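RNA was sequenced from 4 mouse liver libraries: 2 tumours, 1 normal liver labelled double heterozygous and 1 labelled wild type. Per the labels' protocols, TRIZOL was used for RNA extraction and an Illumina TruSeq kit for the libraries. The submitters' processing notes name TopHat2 2.0.10 and HTSeq, besides FastQC, Trimmomatic and DESeq2, and the build mm9, with no role or order. The authors deposited raw read counts per gene symbol, with no normalization, in 1 table per library; 5 lines per table that name no gene were left out (13.6% to 31.5% of each table's total lay outside genes and 30.7% to 51.5% was not unique).

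The normal tables share counts beyond sampling, so their rounded mean was used as 1 library. edgeR 4.0.16 in R 4.3.3 (glmQLFit and glmQLFTest after TMM scaling and filterByExpr at min.count 10) was fitted to all genes with Benjamini-Hochberg adjustment and a threshold of 0.05. The fit has 1 residual degree of freedom, from the tumours, and assumes that the normal library varies like them; p-values measure only the spread between these samples, which may be technical. The SE of a log2 fold change is its size divided by the square root of F. The common dispersion was 0.442. Ratios of single libraries used a prior count of 2 and a TMM factor for each of the 4 tables, for genes reaching 10 CPM in 1 library or both. Elsewhere the CPM values of both normal tables used the TMM factor of their mean. Intervals (95%, exact Poisson for counts and Clopper-Pearson for shares) and the floor of 3 counts (0.202 and 0.161 CPM in tumours 1 and 2, 0.329 CPM for mean normal liver) reflect counting error alone: no molecular identifiers were used. Transcript length is the union of protein-coding exons in GENCODE M21 (GRCm38). That annotation and its transcripts also gave overlapping genes and, for listed genes, the percentage of 31-base stretches found in another gene. Its build, like that of the start-site windows, is not the mm9 named for the counts. Coordinates are therefore given for the printed windows alone. DESeq2 1.42.0, other scalings, no filter, each normal table alone and both as separate libraries were the alternatives.

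The members and lists were chosen with earlier results of these data known. All 10 members are named, and of each pathway list the genes past the threshold, at most 6; Smad3 and Spnb2 are always named. Some genes that these rules would name are not reported here.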

Additional observations from a re-analysis of the deposited data

How the results depend on the processing

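Without scaling the median log2 fold change of all genes moved by 1.37, by 0.231 with upper quartile scaling, by 0.107 without a filter and by -0.115 with the normal tables as separate libraries. Calls over all 14468 genes tested were 322 higher and 751 lower. Of the same number, they were 414 and 938 with DESeq2 size factors and 385 and 716 with upper quartile scaling. Without scaling they were 635 and 472, which takes the share of calls that are higher to 57.4%. They were 903 and 1383 of 18506 without a filter (39.5%) and 1733 and 1721 of 13841 in DESeq2 (50.2%). With the normal tables as separate libraries they were 3058 and 3157 of 13511 (49.2%), a fit in which the shared counts make the normal spread too small. The calls of the set and lists under each setting are to be read beside these counts. Called members of the set numbered 3, and 5 without a filter, 6 in DESeq2 and 7 with separate normal tables; 0 were called lower under any alternative. Latency and activation genes called higher were 1 with DESeq2 size factors, 1 with upper quartile scaling, 2 without scaling, 2 without a filter, 4 in DESeq2 and 6 with separate normal tables, and those lower 3, 4 and 5 under the last 3. Signalling genes called higher were 2, 4 and 12 under the same 3, and 0 with either normal table left out; those lower were 1 in DESeq2 and 6 with separate tables. Target genes called higher were 13 in DESeq2 and 13 with separate tables, where 1 was lower. The direction turned for Tgfbr1 (-0.0061 without the table labelled wild type and 0.22 without the one labelled double heterozygous), and the cause was not tested. It also turned for Ltbp4, from -0.33 to 1.04 without scaling, the setting that moved the median of all genes by 1.37. Per transcript length, the share of Tgfb2 among ligands was 71.6% and 30.9% in tumours 1 and 2. Alternatives for the named genes of the pathway lists were chosen after seeing the data. Leaving out a tumour leaves 1 library against 1 and no test. No paired analysis was possible because the normal livers carry no replicate numbers. The 4 Tgfb2 counts of normal liver limit the precision of its fold change, as do the 4 to 6 of Tgfb3.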
